A study of Mus musculus with 6 samples.

Results

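EphA receptors are the larger class of Eph receptor tyrosine kinases, and their mRNA was followed here in cultured mouse spermatogonial stem cells, the germ line stem cells of the adult testis. The class was taken by gene name, as Epha1, Epha2, Epha3, Epha4, Epha5, Epha6, Epha7, Epha8 and Epha10, which are 9 of the 41053 gene names in the count files. Reads were found for all 9, and 6 of them (Epha1, Epha2, Epha3, Epha4, Epha7 and Epha8) had enough counts to be tested, among 15263 tested genes. Polyadenylated RNA from 6 lines was sequenced with a strand-keeping kit, 1 library per line. The 3 lines labelled Ephb2-KO had received by electroporation a plasmid for a green fluorescent protein reporter with a guide RNA against Ephb2, a receptor of the EphB class, and the 3 wild-type (WT) lines had received the reporter without the guide. Fluorescent cells were sorted and subcloned in both groups, so that each line is a subclone and all 6 had been through electroporation, sorting and culture in a StemPro-34 medium with supplements and growth factors. Replicates 1 and 2 of each group were at passage 20 and replicate 3 of each group at passage 18. Nothing in the labels ties lines of 1 number to a shared culture or sets the lines apart by animal. The p-values therefore speak for these 6 lines only. The design allows 3 comparisons for the receptors: Ephb2-KO against WT, passage 20 against passage 18, and replicate 2 against replicate 1 within passage 20. They were made on the same 6 libraries and are not independent of each other. Ephb2-KO against WT was measured against the spread among the lines of a group. The passage and replicate comparisons were fitted with the number. Their p-values thus measure only the spread left between lines of the same number, and not that between numbers.

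Eph receptors sit in the cell membrane and are switched on by ephrins, ligands that are themselves tied to the surface of a neighbouring cell, so that signalling needs contact between cells. EphA receptors bind mainly the ephrin-A ligands, which are held by a lipid anchor, and EphB receptors the ephrin-B ligands, which cross the membrane; EphA4 also binds ephrin-B ligands. Binding can send a signal into the receptor's cell and into the ligand's cell, and the pathway is known for steering axons, setting tissue boundaries and controlling adhesion and movement of cells.

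Ephb2, the targeted gene, gave 37.1, 16.5 and 13.4 CPM (read counts per 1000000 reads of the library, scaled by TMM) in Ephb2-KO replicates 1, 2 and 3, against 21.3, 27.1 and 10.8 CPM in WT replicates 1, 2 and 3. The groups overlapped, and a lower mRNA level under the Ephb2-KO label was not seen (log2 difference 0.18, SE 0.50, edgeR quasi-likelihood test, adjusted p = 1). An edit of the coding sequence need not lower the mRNA, so its level does not test the label, and Ephb2-KO is used here as the label gives it. Total counts ranged from 21772404 to 34047758, and a count of 3 was worth 0.0803 to 0.147 CPM. The 15 germ line markers were all detected, and their summed level was 1858 to 3681 CPM in Ephb2-KO libraries and 2090 to 3744 CPM in WT libraries. The 14 fibroblast or feeder markers were all detected as well, with a sum of 6247 to 25190 CPM in Ephb2-KO libraries and 4065 to 21670 CPM in WT libraries, and in both groups the highest sum was that of replicate 3. Markers of Leydig (1.11 to 2.12 CPM summed, over the 6 libraries, Hsd3b1 at 0 counts), endothelial (4.29 to 15.3 CPM) and macrophage or blood cells (7.498 to 20.9 CPM, most of it Cd68) were low, and those of Sertoli (83.6 to 114.2 CPM), neural (27.0 to 53.0 CPM) and peritubular cells (26.0 to 68.6 CPM) were between. In RNA from whole cultures, fewer cells of a type and less RNA per cell cannot be told apart.

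Epha2 and Epha1 made up most of the EphA mRNA. Levels of different genes are compared here as CPM per kilobase of exon, over all 6 libraries. Epha2 averaged 14.5 ± 16.4 CPM per kb (SD, n = 6), with a lowest value of 2.87, a median of 4.89 and a highest of 37.5. Epha1 averaged 7.36 ± 2.77 CPM per kb, from 4.36 to 10.5. The mean put Epha2 above Epha1, but Epha1 held the top place in the 4 libraries of replicates 1 and 3, and Epha2 in both libraries of replicate 2. Epha4 (0.958 ± 0.369 CPM per kb), Epha7 (0.860 ± 0.802), Epha8 (0.702 ± 0.353) and Epha3 (0.492 ± 0.429) followed, and the ranges of these 4 overlapped, so that their order among themselves was within their spread. Every value of Epha1, and every value of Epha2, lay above the highest value of any of these 4, which was 1.99 CPM per kb for Epha7. Epha6 (0.0182 CPM per kb), Epha5 (0.00624) and Epha10 (0.00323) were far below all the others.

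**Figure D1:**
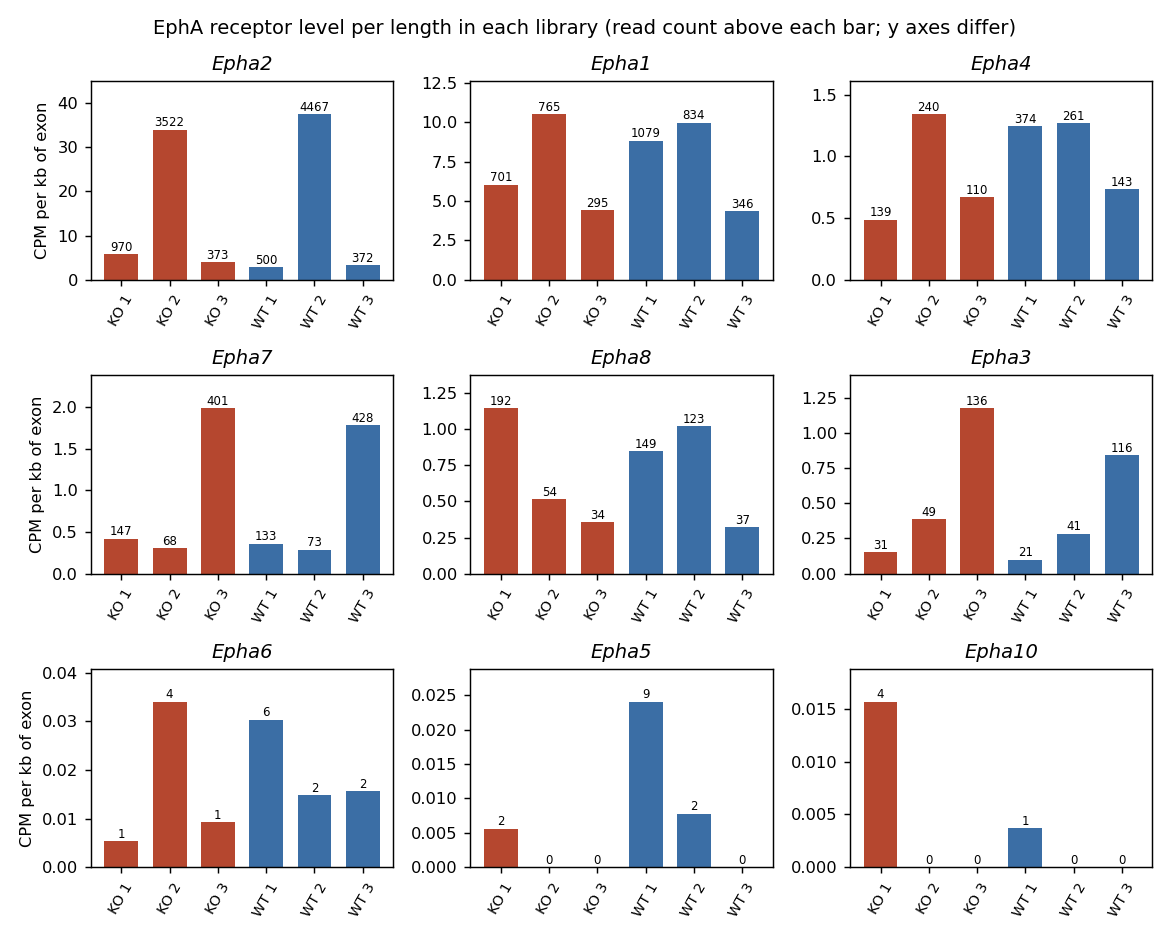
EphA receptor levels in CPM per kb of exon (y axis, different for each gene) in the 3 Ephb2-KO libraries (red) and the 3 WT libraries (blue), numbered by replicate, with the read count above each bar. Epha2 stands at 33.9 and 37.5 CPM per kb in the replicate 2 libraries, and Epha3 and Epha7 are highest in replicate 3 of both groups.

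The make-up of the summed EphA level was alike in both libraries of number 2 and in both of number 3, and less so in those of number 1. The sum over the 9 members was 14.1, 47.0 and 12.6 CPM per kb in Ephb2-KO replicates 1, 2 and 3, and 14.3, 50.3 and 11.4 CPM per kb in WT replicates 1, 2 and 3. Epha2 held 41.4%, 72.1% and 31.2% of it in the Ephb2-KO libraries and 20.0%, 74.4% and 28.9% in the WT libraries. Epha1 held 42.8%, 22.4% and 35.3% in the Ephb2-KO libraries, against 61.7%, 19.8% and 38.4% in the WT libraries. Replicate 2 thus had the highest sum in both groups, and Epha2 held the largest share of it. Epha7 and Epha3 together were a small part except in replicate 3, where Epha7 held 15.9% in Ephb2-KO and 15.7% in WT, and Epha3 9.40% in Ephb2-KO and 7.45% in WT. These shares are a description and were not tested.

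**Figure D2:**
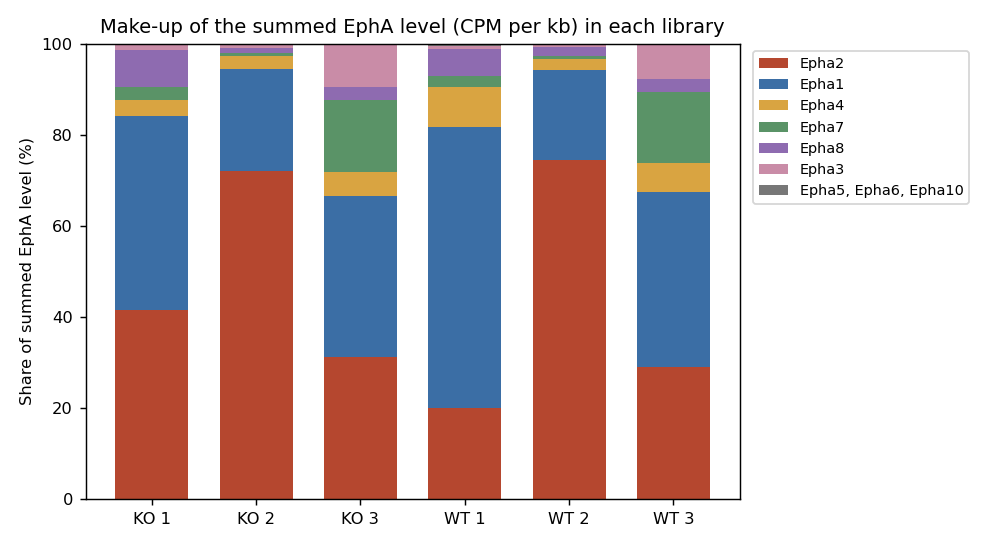
Share of the summed EphA level (CPM per kb, y axis in percent) held by each member in the 3 Ephb2-KO libraries and the 3 WT libraries. Epha2 fills 72.1% and 74.4% of the bars of replicate 2, and Epha7 with Epha3 widens in replicate 3 of both groups.

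By the coordinates of the deposited files (GRCm38), Epha2 lies on the plus strand at chr4:141301240-141329384, Epha8 on the minus strand at chr4:136929419-136956816 and Epha7 on the plus strand at chr4:28813131-28967499. Epha10 is also on chromosome 4 (chr4:124880899-124917800, plus strand). Epha1 lies at chr6:42358487-42373268, Epha4 at chr1:77367185-77515088, Epha5 at chr5:84057791-84417382, and Epha3 and Epha6 at chr16:63543538-63864158 and chr16:59653483-60605531, all on the minus strand. The targeted Ephb2, at chr4:136647539-136835988 on the minus strand, is the near neighbour of Epha8. Between the highest coordinate of Ephb2 and the lowest coordinate of Epha8 lie 93430 bp. The 3 genes named between them, C1qa, C1qb and C1qc, had 0 counts in all 6 libraries. Exons of Epha1 (160 bp, Zyx), Epha6 (107 bp, Gm9017) and Epha10 (79 bp, 1700125G02Rik) overlap a gene on the other strand, and the counting kept strands apart.

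Promoter windows are given for the members whose levels moved most between libraries and for the neighbours Epha8 and Ephb2, whose patterns are compared further on. Each runs from 250 bases before to 50 bases after the RefSeq start (GRCm38.p6) and is written 5′ to 3′ along the gene's own strand. All 9 members had a RefSeq window, and that of Epha7 is the first of 2 entries. Capitals mark matches to 5 motifs searched on both strands: the GC box (GGGCGG, or CCGCCC), the CCAAT box (CCAAT, or ATTGG), the TATA box (TATAAA, or TTTATA), an ETS core (CCGGAA, or TTCCGG) and an E box (CACGTG). None of the motifs contains another, and GC boxes that overlap each other were counted separately.
Epha2, chr4:141300971-141301270, plus strand: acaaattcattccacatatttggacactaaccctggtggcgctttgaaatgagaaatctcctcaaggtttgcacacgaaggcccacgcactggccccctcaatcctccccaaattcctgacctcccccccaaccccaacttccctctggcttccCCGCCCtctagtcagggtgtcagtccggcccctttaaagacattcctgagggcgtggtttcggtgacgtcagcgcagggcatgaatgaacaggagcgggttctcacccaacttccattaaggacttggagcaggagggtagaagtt
Epha3, chr16:63864126-63864425, minus strand: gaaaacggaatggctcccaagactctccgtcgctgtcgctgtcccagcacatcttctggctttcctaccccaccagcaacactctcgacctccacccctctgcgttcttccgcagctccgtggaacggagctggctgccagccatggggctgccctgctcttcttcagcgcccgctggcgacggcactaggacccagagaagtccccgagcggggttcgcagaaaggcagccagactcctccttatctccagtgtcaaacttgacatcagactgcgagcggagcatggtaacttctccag
Epha7, chr4:28812881-28813180, plus strand: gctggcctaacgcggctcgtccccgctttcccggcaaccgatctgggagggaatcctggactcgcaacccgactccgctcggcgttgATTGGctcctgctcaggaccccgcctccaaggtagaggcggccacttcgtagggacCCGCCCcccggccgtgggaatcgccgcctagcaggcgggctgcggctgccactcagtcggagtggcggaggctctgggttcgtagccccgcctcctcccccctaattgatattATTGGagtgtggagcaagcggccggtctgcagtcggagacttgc
Epha8, chr4:136956767-136957066, minus strand: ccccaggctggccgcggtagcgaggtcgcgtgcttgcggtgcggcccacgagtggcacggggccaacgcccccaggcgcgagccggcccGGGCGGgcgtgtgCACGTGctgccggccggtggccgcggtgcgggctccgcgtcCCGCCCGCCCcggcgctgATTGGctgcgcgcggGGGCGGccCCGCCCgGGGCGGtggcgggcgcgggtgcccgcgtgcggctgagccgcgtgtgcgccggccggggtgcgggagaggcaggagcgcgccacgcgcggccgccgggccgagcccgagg
Ephb2, chr4:136835963-136836262, minus strand: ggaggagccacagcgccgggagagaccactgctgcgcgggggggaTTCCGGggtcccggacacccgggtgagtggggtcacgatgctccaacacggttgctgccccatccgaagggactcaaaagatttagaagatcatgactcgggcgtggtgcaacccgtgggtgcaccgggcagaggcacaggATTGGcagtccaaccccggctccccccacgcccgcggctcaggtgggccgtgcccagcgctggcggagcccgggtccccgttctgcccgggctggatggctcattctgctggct

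Of all 32817 RefSeq windows of this length, 35.6% held a GC box, 37.4% a CCAAT box, 13.6% a TATA box, 14.9% the ETS core and 7.15% the E box. The Epha2 window held 1 GC box and no other motif searched, and the Epha3 window held none of them. The Epha7 window held 1 GC box and 2 CCAAT boxes. Epha3 and Epha7, which both were high in replicate 3, thus shared no motif of the 5. The Epha8 window was the richest, with 6 GC boxes, 1 CCAAT box and 1 E box, and the Ephb2 window held 1 CCAAT box and 1 ETS core, so that the neighbours had the CCAAT box in common. Epha8 had 56 CpG dinucleotides in its window and a GC content of 84.3%, where the median window had 7 and 52.7%, and 99.8% of all windows had fewer CpG than it. Epha2 had 10 CpG and 54.7% GC, close to the median, and Ephb2 had 24 and 68.7%. None of the 9 members had a TATA box or the ETS core in its window. A match is a string of letters and no more, and these counts say nothing of binding.

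No EphA receptor was detected as different between Ephb2-KO and WT lines in the fit without the replicate number. Differences between numbers counted as spread there, so differences of that size between the groups were not detectable. Of the 6 tested receptors, 0 passed an adjusted p of 0.05 (edgeR quasi-likelihood test with Benjamini-Hochberg adjustment over all tested genes), where 0% of all tested genes passed, 32 of them reached an unadjusted p under 0.05, and DESeq2 called 4 genes. Of the 6, 3 lay above 0 and 3 below, and their median log2 difference was -0.06, against 0.02 over all tested genes.

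Epha2, a receptor of epithelial cells whose main ligand is ephrin-A1, had 27.3, 158.6 and 18.3 CPM in the Ephb2-KO libraries (replicates 1, 2 and 3), against 13.4, 175.0 and 15.4 CPM in the WT libraries. The groups overlapped fully, with 68.1 ± 78.5 CPM in Ephb2-KO and 67.9 ± 92.8 CPM in WT (SD, n = 3 each) and a log2 difference of 0.00 (SE 1.19). The 95% interval of the fold, 0.144 to 6.98, left large differences in either direction undetectable. Epha1, the founding member of the family, had 19.8, 34.4 and 14.5 CPM in the Ephb2-KO libraries, against 28.9, 32.7 and 14.3 CPM in the WT libraries. Its groups overlapped too, at 22.9 ± 10.3 CPM in Ephb2-KO and 25.3 ± 9.72 CPM in WT (log2 difference -0.14, SE 0.44), with a fold interval of 0.441 to 1.86.

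Epha4, the member that accepts ligands of both classes, had 3.92, 10.8 and 5.40 CPM in the Ephb2-KO libraries, against 10.02, 10.2 and 5.90 CPM in the WT libraries. Replicate 1 was low in Ephb2-KO and high in WT while the other numbers were near each other, and the log2 difference was -0.38 (SE 0.48). Epha8, a receptor known from the developing midbrain, had 5.41, 2.43 and 1.67 CPM in the Ephb2-KO libraries, against 3.99, 4.82 and 1.53 CPM in the WT libraries. The highest value was that of an Ephb2-KO line and the lowest that of a WT line, and the log2 difference was -0.12 (SE 0.62).

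Epha3, known from the developing heart and brain, had 0.874, 2.21 and 6.68 CPM in the Ephb2-KO libraries, against 0.562, 1.61 and 4.79 CPM in the WT libraries. Within each number the Ephb2-KO line was the higher, but the groups overlapped (log2 difference 0.49, SE 0.96). Epha7, known from the developing brain, had 4.14, 3.06 and 19.7 CPM in the Ephb2-KO libraries, against 3.56, 2.86 and 17.7 CPM in the WT libraries. It too was the higher in each Ephb2-KO line when set beside the WT line of its number, with a log2 difference of 0.16 (SE 0.95) and overlapping groups.

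Since lines of the same number deviated together over all genes, the comparison was also fitted with the number as a block. Of the 6 receptors 0 passed there, where 0.0262% of tested genes (4 of 15263) did and 987 reached an unadjusted p under 0.05. The block narrowed the intervals of the fold to 0.934 to 1.78 for Epha2 (log2 difference 0.37, SE 0.21, adjusted p = 0.749), 0.911 to 2.24 for Epha3 (0.52, SE 0.30, adjusted p = 0.750) and 0.473 to 1.11 for Epha4 (-0.47, SE 0.28, adjusted p = 0.759). Those of Epha1 (0.695 to 1.16), Epha7 (0.831 to 1.503) and Epha8 (0.552 to 1.51) were narrower as well. Within pairs 1, 2 and 3 the log2 difference, Ephb2-KO minus WT, was 1.03, -0.14 and 0.25 for Epha2, and 0.58, 0.44 and 0.48 for Epha3. That of Epha4 was -1.34, 0.08 and -0.13, so that pair 1 alone gave most of its difference. That of Epha8 was 0.43, -0.97 and 0.12, with a change of sign between pairs.

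**Figure D3:**
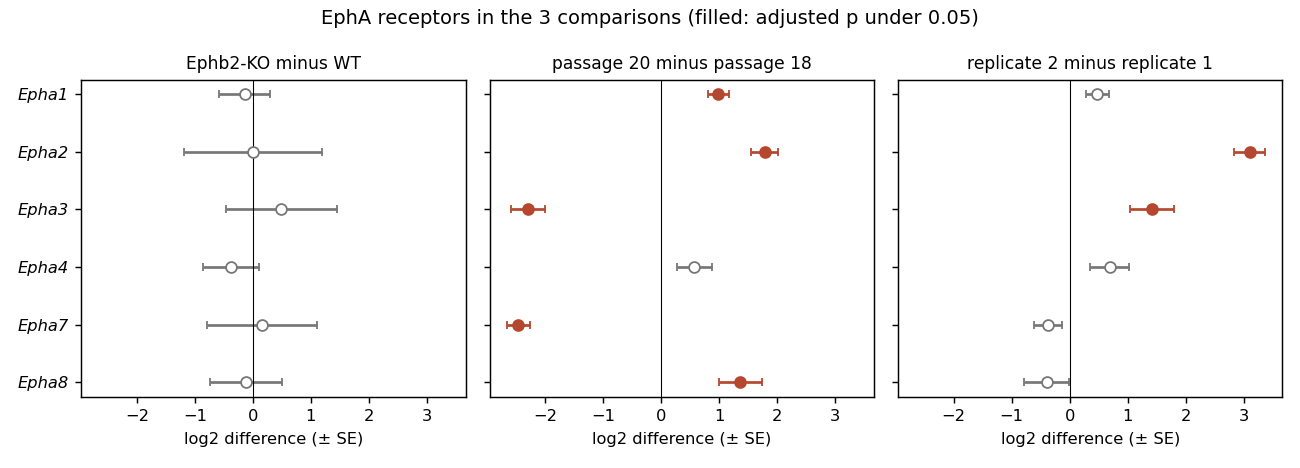
Log2 difference (x axis, with bars of 1 SE) of the 6 tested EphA receptors in the 3 comparisons, Ephb2-KO minus WT on the left, passage 20 minus passage 18 in the middle and replicate 2 minus replicate 1 on the right. Filled red points have an adjusted p under 0.05: 0 on the left, 5 in the middle and 2 on the right.

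Between the passages, Epha1, Epha2 and Epha8 were higher and Epha3 and Epha7 lower at passage 20. Of the 6 tested receptors 5 passed, in a comparison in which 48.0% of all tested genes did (3505 higher and 3818 lower), and the receptors' count is to be read against that background. The count was 3 without WT replicate 3 and 3 with passage in place of the number in the fit. The comparison sets the mean of replicates 1 and 2 (passage 20) against replicate 3 (passage 18) with group as a term. It used edgeR's quasi-likelihood test, and the gap between replicates 1 and 2 was not part of its error. As only number 3 was at passage 18, passage and number cannot be told apart. An interaction of group and passage was added after the data were seen. It was fitted without the number and had 1 library of each group at passage 18. Its log2 difference, Ephb2-KO minus WT, had the smallest SE for Epha1 (-0.207, SE 0.617) and the largest for Epha2 (-0.275, SE 2.201). As the gap between replicates 1 and 2 counted as spread there, it could not decide whether the passages differed alike in both groups.

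Epha7 fell furthest. Its 4.14 and 3.06 CPM in the passage 20 lines labelled Ephb2-KO and 3.56 and 2.86 CPM in the passage 20 WT lines stood against 19.7 CPM in the passage 18 line labelled Ephb2-KO and 17.7 CPM in the passage 18 WT line. The passages did not overlap, and the fold was 0.181 (log2 difference -2.47, SE 0.19, edgeR adjusted p = 2.40e-06). Epha3 also fell at passage 20 without overlap (log2 difference -2.29, SE 0.29, fold 0.204, edgeR adjusted p = 9.87e-05). Both were lower in replicate 1 and in replicate 2 when each was set against replicate 3 alone, at log2 differences of -2.28 and -2.65 for Epha7 and -2.999 and -1.59 for Epha3. The fibroblast or feeder markers moved the same way: 12 of 14 were lower at passage 20 and 1, Twist1, was higher, their median log2 difference was -2.17, and their sum was 4065 to 6660 CPM over the 4 passage 20 libraries, against 21670 to 25190 CPM over the 2 passage 18 libraries. Of the 15 germ line markers 14 were higher at passage 20 (median log2 difference 0.79), with a sum of 3120 to 3744 CPM there, against 1858 to 2090 CPM at passage 18. Among them Etv5 was higher in replicate 2 only. Its replicate 1 values, 23.3 CPM in Ephb2-KO and 24.7 CPM in WT, lay below those at passage 18, 31.9 and 31.2 CPM. Ddx4 stood highest in replicate 1, at 290.4 CPM in Ephb2-KO and 190.7 CPM in WT. Its replicate 2 values, 95.8 CPM in Ephb2-KO and 117.1 CPM in WT, were near those at passage 18, 83.7 and 118 CPM. None of the markers on either list was at 0. Their part in the differences of the receptors was not tested.

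Epha1 was 1.98-fold higher at passage 20 (log2 difference 0.99, SE 0.19, edgeR adjusted p = 0.00137), and all 4 passage 20 libraries, at 19.8 to 34.4 CPM, lay above both passage 18 libraries, at 14.5 CPM in Ephb2-KO and 14.3 CPM in WT. It passed against replicate 3 in replicate 1 alone (log2 difference 0.75, adjusted p = 0.0145) and in replicate 2 alone (1.22, adjusted p = 0.000803), but not without WT replicate 3 (adjusted p = 0.0596). Epha8 was 2.58-fold higher (log2 difference 1.37, SE 0.37, edgeR adjusted p = 0.0107), with 2.43 to 5.41 CPM at passage 20 and 1.67 and 1.53 CPM in the Ephb2-KO and WT lines at passage 18, and no overlap. Its call was lost without Ephb2-KO replicate 3 (adjusted p = 0.0558), without WT replicate 2 (0.0563), without WT replicate 3 (0.151), and with passage in place of the number in the fit (0.0609).

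Epha2 was 3.44-fold higher at passage 20 (log2 difference 1.78, SE 0.23, edgeR adjusted p = 0.000332), but that average joined unlike lines. Replicate 2 alone was 10.1-fold above replicate 3 (log2 difference 3.33, edgeR adjusted p = 2.45e-05), while replicate 1 alone was not distinguishable from it (log2 difference 0.23, SE 0.25, adjusted p = 0.494). In the WT group, the passage 20 replicate 1, at 13.4 CPM, lay below the passage 18 line, at 15.4 CPM. With passage in place of the number in the fit, the log2 difference was 2.48 and the adjusted p 0.150. Epha4 did not pass (log2 difference 0.57, SE 0.30, edgeR adjusted p = 0.144, fold interval 0.936 to 2.34). It passed for replicate 2 against replicate 3 alone (log2 difference 0.91, adjusted p = 0.0475) and without Ephb2-KO replicate 1 (log2 difference 0.87, adjusted p = 0.000222).

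Within passage 20, Epha2 separated replicate 2 from replicate 1 more widely than nearly any gene. It stood at 158.6 CPM in Ephb2-KO replicate 2 and 175.0 CPM in WT replicate 2, against 27.3 CPM in Ephb2-KO replicate 1 and 13.4 CPM in WT replicate 1. The numbers did not overlap, and the fold was 8.60 (95% interval 5.68 to 13.02, log2 difference 3.10, SE 0.26, edgeR adjusted p = 0.000295). Only 66 of the 15263 tested genes, or 0.432%, had a larger absolute log2 difference. Within the groups the log2 difference between the numbers was 2.53 in Ephb2-KO and 3.70 in WT. Over all 6 libraries the highest Epha2 value was 13.01 times the lowest, and 1.87% of tested genes had a wider range on the log2 scale, where the median range was 1.08.

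Of the other receptors, Epha3 passed: it was 2.67-fold higher in replicate 2 than in replicate 1 (log2 difference 1.42, SE 0.38, edgeR adjusted p = 0.0284), with 2.21 CPM in Ephb2-KO and 1.61 CPM in WT replicate 2, against 0.874 CPM in Ephb2-KO and 0.562 CPM in WT replicate 1. These rest on 21 to 49 reads a library, and the call was lost with only the passage 20 libraries in the fit (adjusted p = 0.102) and without Ephb2-KO replicate 2 (0.119), Ephb2-KO replicate 3 (0.0714), WT replicate 2 (0.128) or WT replicate 3 (0.0643). So 2 of 6 receptors passed, where 16.5% of all tested genes did (1242 higher and 1274 lower). Epha1 (log2 difference 0.48, SE 0.20, adjusted p = 0.132), Epha4 (0.69, SE 0.34, adjusted p = 0.184), Epha7 (-0.38, SE 0.25, adjusted p = 0.320) and Epha8 (-0.40, SE 0.39, adjusted p = 0.516) did not pass. Without WT replicate 1, Epha4 (log2 difference 1.42, adjusted p = 7.99e-05) and Epha1 (0.80, adjusted p = 0.00500) did.

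The genes whose pattern over the 6 libraries was most like that of Epha2 were named by the smallest root mean square difference of log2 CPM, each gene centred on its own mean. They were Cd300lb (0.210), an immune receptor gene, Sh3tc1 (0.307), which encodes an SH3-domain protein, and Etv4 (0.364), an ETS transcription factor that responds to FGF and GDNF signalling, where the median over tested genes was 1.60. In the libraries of replicates 1 and 3, Cd300lb rested on only 11 to 38 reads and Sh3tc1 on 8 to 17. Etv4 had 80.7 CPM in Ephb2-KO replicate 2 and 84.3 CPM in WT replicate 2, against 19.5 CPM in Ephb2-KO replicate 1 and 13.4 CPM in WT replicate 1 (fold 5.07, log2 difference 2.34, SE 0.19, edgeR adjusted p = 5.52e-05). Its passage 18 values, 12.8 CPM in Ephb2-KO and 12.3 CPM in WT, were near those of replicate 1. Etv5, a germ line marker on the list and a relative of Etv4 needed for stem cell renewal in the testis, had 218.2 and 251.7 CPM in replicate 2 of Ephb2-KO and WT, against 23.3 and 24.7 CPM in replicate 1 (log2 difference 3.29, SE 0.15, edgeR adjusted p = 1.09e-06). Of the 15 germ line markers, Etv5, Epcam and Gfra1 were higher and Ddx4 lower in replicate 2, with a median log2 difference of 0.12, and the summed germ line level was 3459 and 3744 CPM in replicate 2 of Ephb2-KO and WT, against 3681 and 3120 CPM in replicate 1. Of the feeder markers 3 were higher and 3 lower, with a median of 0.03. Of the 3 tested endothelial markers Tek passed, and Pecam1 (log2 difference 1.05, SE 0.39, adjusted p = 0.0926) and Kdr (1.06, SE 0.46, adjusted p = 0.136) did not. Of the 3 tested macrophage or blood markers Cd68 passed, and Lyz2 (0.35, SE 0.55) and Csf1r (-0.94, SE 0.73) did not. The endothelial sum was 15.3 and 14.1 CPM in replicate 2 of Ephb2-KO and WT, against 6.29 and 7.31 CPM in replicate 1, and the macrophage sum was 17.5 and 20.9 CPM in replicate 2, against 7.498 and 7.82 CPM in replicate 1. Over the 6 libraries the endothelial list held Pecam1 at 2.19 to 6.89 CPM, Tek at 0.949 to 6.53, Kdr at 0.677 to 1.96, Cdh5 at 0.0450 to 0.310 and Tie1 at 0 to 0.0900 CPM. The macrophage list held Cd68 at 5.26 to 20.1 CPM, Lyz2 at 0.314 to 3.54, Csf1r at 0.135 to 1.13 and Ptprc at 0 to 0.246 CPM. The part of these markers in the Epha2 difference was not tested.

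Nearest to Epha1 were Gm16702 (0.095), Kdm8 (0.105) and Ptpn3 (0.105), where the median over tested genes was 0.623. Gm16702, a predicted gene at 0.442 to 1.22 CPM, rested on only 9 to 38 reads a library. Kdm8 encodes a JmjC-domain protein, and Ptpn3 a tyrosine phosphatase. Kdm8 had 3.66, 5.58 and 2.55 CPM in the Ephb2-KO libraries (replicates 1, 2 and 3), against 5.65, 6.39 and 2.85 CPM in the WT libraries. Like Epha1, it was highest in replicate 2 and lowest in replicate 3 of both groups.

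**Figure D4:**
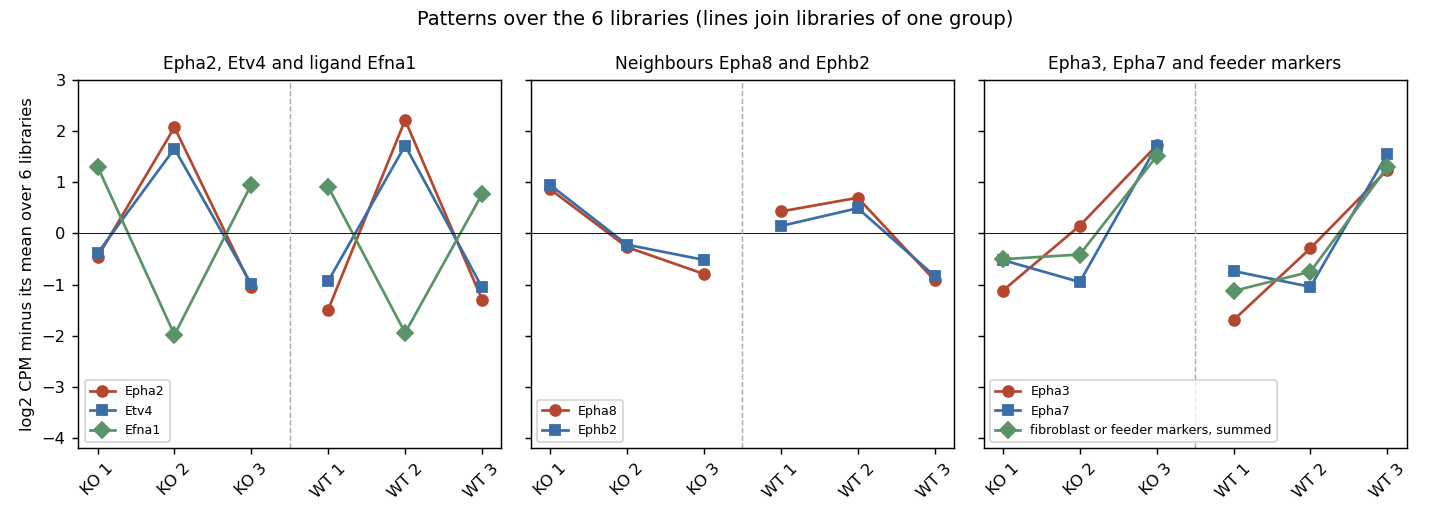
Log2 CPM minus the gene's mean over the 6 libraries (y axis) in the Ephb2-KO libraries (left of the dashed line) and the WT libraries (right of it), for Epha2 with Etv4 and Efna1 (left panel), Epha8 with Ephb2 (middle panel) and Epha3 and Epha7 with the summed feeder markers (right panel). Epha2 and Etv4 peak and Efna1 dips in replicate 2 of both groups, Epha8 follows Ephb2 library by library, and Epha3 and Epha7 are highest in replicate 3.

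Epha8 followed the targeted gene. The ratio of the Epha8 count to the Ephb2 count, which are separate reads, was 14.6%, 14.8% and 12.5% in the Ephb2-KO libraries (replicates 1, 2 and 3), against 18.8%, 17.8% and 14.2% in the WT libraries. The ratio lay between 12.5% and 18.8% while Ephb2 itself ranged from 10.8 to 37.1 CPM, and per kilobase of exon Epha8 was at 33.3% to 39.5% of the Ephb2 level in Ephb2-KO libraries and 37.9% to 50.2% in WT libraries. The ratio was lower in all 3 libraries labelled Ephb2-KO than in the WT library of the same number, and the groups overlapped. The root mean square difference of the centred log2 CPM of the pair was 0.189, 5 of the other 15262 tested genes were closer to Epha8 than Ephb2 was, and 27 were closer to Ephb2 than Epha8 was. The likeness with Ephb2 was looked at after the values were seen, and it is a description over 6 libraries. Ephb2 was also higher at passage 20 (log2 difference 1.07, SE 0.29, edgeR adjusted p = 0.0159), beside 1.37 for Epha8. Between replicate 2 and replicate 1 neither passed, with -0.39 for Ephb2 and -0.40 for Epha8. These averages joined opposite signs: -1.17 in Ephb2-KO and 0.35 in WT for Ephb2, and -1.13 in Ephb2-KO and 0.27 in WT for Epha8.

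Epha3 and Epha7 were both highest at passage 18 but differed between replicates 2 and 1, where the log2 difference was 1.42 for Epha3 and -0.38 for Epha7. Their root mean square difference was 0.724, 1111 tested genes were closer to Epha3 than Epha7 was, and 1700 were closer to Epha7 than Epha3 was. Among the 6 tested EphA receptors Epha1 and Epha4 were the most alike pair, at 0.332, with 1384 tested genes closer to Epha1 than Epha4 was and 222 closer to Epha4 than Epha1 was.

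Epha5, Epha6 and Epha10 were at the edge of detection. Epha6 had 1, 4 and 1 reads in the Ephb2-KO libraries (replicates 1, 2 and 3), against 6, 2 and 2 reads in the WT libraries. Epha5, a receptor of the nervous system, had 2, 0 and 0 reads in the Ephb2-KO libraries, against 9, 2 and 0 reads in the WT libraries. Epha10, whose kinase domain is thought to be inactive, had 4, 0 and 0 reads in the Ephb2-KO libraries, against 1, 0 and 0 reads in the WT libraries. None of the 3 passed the filter on low counts, no difference was detectable at this depth, and a count of 0 still allowed 3 reads, up to 0.147 CPM in the shallowest library.

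Among the ligands, Efna1 was low in replicate 2 of both groups, where Epha2 was high. The 5 ephrin-A genes were all tested, and per length Efna4 was highest (mean of 12.97 CPM per kb over the 6 libraries), followed by Efna2 (9.48), Efna3 (8.57), Efna1 (3.21) and Efna5 (0.760). Efna1, which encodes the main ligand of EphA2, had 10.3, 0.991 and 8.06 CPM in the Ephb2-KO libraries (replicates 1, 2 and 3), against 7.79, 1.02 and 7.06 CPM in the WT libraries. Replicate 2 was the low one in both groups, while within pairs 1 and 3 the log2 difference, Ephb2-KO minus WT, had the sign of that of Epha2, at 0.40 and 0.19. That of pair 2, -0.04, rested on 22 reads in Ephb2-KO and 26 in WT, too few to read its sign. Efna1 in replicate 2 was 0.113 of its level in replicate 1 (log2 difference -3.15, SE 0.31, edgeR adjusted p = 0.000158), and 59 tested genes had a larger absolute difference. It was also lower at passage 20 (log2 difference -1.32, SE 0.23, edgeR adjusted p = 0.000885). Replicate 1, also at passage 20, lay above replicate 3 in both groups.

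Efna2 rose at passage 20 (log2 difference 0.53, SE 0.18, edgeR adjusted p = 0.0296), with 20.5 to 26.6 CPM in the 4 passage 20 libraries, against 17.5 and 13.8 CPM in the Ephb2-KO and WT lines at passage 18. Efna5 had 4.77 CPM in Ephb2-KO replicate 2 and 3.45 CPM in WT replicate 2, against 1.55 CPM in Ephb2-KO replicate 1 and 2.17 CPM in WT replicate 1, and missed the threshold (log2 difference 1.15, SE 0.37, adjusted p = 0.0551). Efna3 (17.3 to 27.1 CPM) and Efna4 (18.7 to 21.9 CPM) did not pass in any of the 3 comparisons. Between Ephb2-KO and WT, 0 of the 5 ligands passed and all 5 log2 differences were at or above 0, from 0.00 for Efna4 to 0.29 for Efna1 (SE 0.96), with a median of 0.19 against 0.02 over all tested genes. With the replicate block 4 lay above 0 and 1, Efna5 (-0.08, SE 0.30), below.

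Of 44 genes of the listed Eph signalling effectors, 43 were tested. Between Ephb2-KO and WT 0 of them passed, with 27 above 0 and 16 below (median log2 difference 0.05). Those with the smallest p were Git1, an adaptor with GTPase-activating function (log2 difference 0.39, SE 0.26), the phosphoinositide kinase subunit gene Pik3r2 (0.36, SE 0.25) and Chn2, a GTPase-activating chimaerin (-0.50, SE 0.36). At passage 20, 18 effectors were higher and 8 lower, or 26 of 43 beside the 48.0% of all tested genes, with a median log2 difference of 0.29. The smallest p values were those of Pik3r1, a subunit of the same kinase, which fell (log2 difference -1.40, SE 0.13), of the kinase gene Src, which rose (1.14, SE 0.15), and of the adaptor gene Crk, which fell (-0.93, SE 0.13). Between replicate 2 and replicate 1, 7 of 43 were higher and 0 lower, beside the 16.5% of all tested genes. They were led by Ptpn1, which encodes a phosphatase known to act on EphA3 (log2 difference 0.88, SE 0.15, edgeR adjusted p = 0.00363), the kinase gene Abl2 (0.83, SE 0.16, adjusted p = 0.00723) and the GTPase gene Rac1 (0.64, SE 0.14, adjusted p = 0.0104).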

How the data were processed

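Counting was the authors' work. The deposited tables hold whole-number read counts for each gene, beside its summed exon length and its coordinates. The file headers name featureCounts 1.4.6-p4, run on 1 merged alignment a library with exons summed per gene name, GENCODE vM3 and strand setting 2, without the options for multi-mapping or overlapping reads. The submitters' processing notes name STAR, FastQC and the build GRCm38.p3. Aligner settings and versions: not given in the sources used here. No column held a sample of another series.

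Counts were fitted in edgeR 4.0.16 (R 4.3.3). A filterByExpr filter kept 15263 genes, TMM scaled the libraries, and glmQLFit (robust) with glmQLFTest gave p-values, adjusted by Benjamini-Hochberg over all tested genes, with a threshold of 0.05. CPM are counts per 1000000 reads of the TMM-scaled library size. Ephb2-KO against WT had no covariate, and the other comparisons were contrasts of replicate numbers with group as a term. Each SE is the log2 difference over the square root of F. Log2 CPM used a prior count of 2, and the floor of 3 counts covers counting error only. DESeq2 1.42.0, other scaling and filters, the replicate block and leaving out libraries were alternatives. Figures were drawn with matplotlib 3.10.9. The scripts were tested on simulated data.

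Deviations from the group means correlated at 0.596 between the libraries numbered 1, 0.736 between those numbered 2 and 0.850 between those numbered 3. With any library of another number in the other group the highest values were 0.0790, 0.0790 and -0.460. By the bound of 0.1 the numbers, taken from the titles, pair the libraries. The members and lists were chosen with earlier results of these data known. The genes named are the 9 members, Ephb2, the ephrin-A ligands, at most 3 effectors by smallest p, and the 3 genes nearest in pattern to each of the 2 most abundant members. Etv5, Twist1, Hsd3b1 and other single markers, and the EphB and ephrin-B genes, were named after their values were seen. The effectors come from general knowledge of Eph signalling, and 8 marker lists describe the libraries.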

Additional observations from a re-analysis of the deposited data

How the results depend on the processing

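The count of EphA receptors called between Ephb2-KO and WT was 0 under every alternative run. The count of all genes called there was 4 with the replicate block and 4 with DESeq2's Wald test. It was 0 with any library or number left out. DESeq2 gave Epha2 no p-value there, so its count of receptors covers only 5 members. For passage 20 against passage 18, 5 receptors and 7323 genes passed, and 3 and 3935 with passage in place of the number and no replicate block; with 1 library left out, 3 to 6 receptors and 3376 to 8719 genes passed, the lowest without WT replicate 3, and 3792 genes without Ephb2-KO replicate 3. For replicate 2 against replicate 1, 2 receptors and 2516 genes passed, and 1 and 1454 with only the passage 20 libraries; with 1 library left out it was 1 to 4 receptors and 1401 to 3555 genes. The cause of these changes was not tested, beyond the fewer libraries in the fits that leave some out. In the order of levels, 2 members changed place for CPM with no division by length (Epha7 above Epha4), 0 with plain count totals and 0 to 4 with a library left out. Signs turned only among differences that did not pass. Between Ephb2-KO and WT, Epha2 was at -0.001 with DESeq2's size factors, and with a library or a number left out the log2 difference ran from -0.562 to 0.10 for Epha1, -1.575 to 2.250 for Epha2, -0.592 to 1.589 for Epha3, -0.905 to 0.008 for Epha4, -1.152 to 1.481 for Epha7 and -0.751 to 0.361 for Epha8. Between replicates 2 and 1, that of Epha8 ran from -1.076 to 0.207. The replicate block changed no call of a receptor between Ephb2-KO and WT, while between the passages Epha2 (adjusted p = 0.150) and Epha8 (0.0609) passed with the number in the fit and not without it. There were 3 lines a group, 1 of them at passage 18. Without the replicate block, differences between Ephb2-KO and WT of the size of those between lines of 1 group were not detectable. The block narrowed the interval of the fold for each tested receptor. Epha5, Epha6 and Epha10 had too few reads to compare.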

Other observations

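In the other class of the pathway, Ephb3, Efnb1 and Efnb2 differed between replicates 2 and 1, and none of its genes passed between Ephb2-KO and WT. Of the 5 EphB receptors all were tested and 0 passed between Ephb2-KO and WT, although all 5 log2 differences lay above 0, with a median of 0.18 against 0.02 over all tested genes. With the replicate block 4 lay above 0 and 1, Ephb1 (-0.03, SE 0.28), below, with a median of 0.14. Ephb4, a receptor known from blood vessels, had 84.4, 46.7 and 75.6 CPM in the Ephb2-KO libraries (replicates 1, 2 and 3), against 35.4, 42.1 and 51.7 CPM in the WT libraries. It was higher in the Ephb2-KO line of each number, with overlapping groups (log2 difference 0.68, SE 0.28, adjusted p = 1, and 0.65 with adjusted p = 0.741 with the replicate block). It was named after its values were seen.

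At passage 20, Ephb2 was higher and Ephb3 lower (log2 difference -0.64, SE 0.18, edgeR adjusted p = 0.0110), and Ephb3 was also lower in replicate 2 than in replicate 1 (-0.74, SE 0.21, edgeR adjusted p = 0.0343). Efnb2, whose product binds EphB4 and EphA4, had 43.0 and 35.3 CPM in replicate 2 of Ephb2-KO and WT, against 12.5 and 9.51 CPM in replicate 1, and these did not overlap (log2 difference 1.84, SE 0.17, edgeR adjusted p = 0.000130). Efnb1 was higher in replicate 2 as well (1.42, SE 0.23, edgeR adjusted p = 0.00325). At passage 20, Efnb3 was higher (0.65, SE 0.15, edgeR adjusted p = 0.00513) and Efnb2 lower on average (-1.0, SE 0.14, edgeR adjusted p = 0.000204). That average of Efnb2 joined unlike lines. Its passage 18 values, 42.3 CPM in Ephb2-KO and 40.0 CPM in WT, were near those of replicate 2 and above those of replicate 1. Between Ephb2-KO and WT 0 of the 3 ephrin-B genes passed.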
